A study of Homo sapiens with 2 samples.

Results

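Binding of RUNX2 and MTA1 was examined along the CDKN2A region of chromosome 9 in MDA-MB-231, a triple-negative breast cancer cell line known to have lost both copies of CDKN2A. The members were 6 of 59098 annotated genes, CDKN2A, CDKN2B, CDKN2B-AS1, MTAP, DMRTA1 and ELAVL2, and they were chosen by name for their place in or near the known deletion. The stretch of chromosome 9 from 20 to 25 Mb around them was taken as 50 bins of 100 kb, of 29536 such bins on chromosomes 1 to 22 and X. Each protein was profiled by CUT&Tag, a method in which a transposase tethered to an antibody cuts and tags the DNA nearby, in cells for which the labels give no drug or gene transfer. There was 1 library with an antibody against RUNX2, a runt-domain transcription factor of bone development, and 1 with an antibody against MTA1, a subunit of the NuRD nucleosome remodelling and deacetylase complex. The data were the peaks that the authors called in each library, 61694 for RUNX2 and 42673 for MTA1 on these chromosomes, each with a score on a scale that was not stated. No value has a replicate, the number of reads is unknown and no control library was analysed here, so all comparisons are descriptions of 2 libraries and no p-value was computed. The intervals given are exact 95% intervals and cover counting error only.

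CDKN2A encodes the CDK inhibitor p16 and, from another first exon, the protein ARF. The former keeps RB active by blocking CDK4 and CDK6, and the latter frees p53 from MDM2. CDKN2B encodes the sister inhibitor p15, and the long noncoding RNA CDKN2B-AS1, also called ANRIL, starts beside the first exon of ARF and runs on the opposite strand across CDKN2B and beyond it. MTAP, the salvage enzyme that returns methylthioadenosine to methionine, lies beside CDKN2A and is often lost with it in tumours. DMRTA1 belongs to the doublesex-related DMRT family of transcription factors, and ELAVL2 encodes a neuronal RNA-binding protein. A segment of DNA that is absent from the genome gives no reads in any library, but a segment that is present and unbound gives no peaks either, and a peak list alone cannot tell these apart.

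Most start regions of the members hold many CpG dinucleotides, the class of promoter at which peaks of both libraries were common. The start of DMRTA1 and one of those of ELAVL2 did not reach the limit used for this class below. Those of CDKN2A, CDKN2B and MTAP are shown because no peak was found at them. The sequences are those of RefSeq for GRCh38.p14, 300 bases from 250 before to 50 after the start, written along the strand of the gene, with each CpG in capitals. All 6 members matched the table, with 12 starts in all. The start of p16 lies at chr9:21974808-21975107 on the minus strand (26 CpG), and the start used for ARF at chr9:21995275-21995574 on the minus strand (28 CpG). That of CDKN2B lies at chr9:22009256-22009555 on the minus strand (25 CpG), and that of MTAP at chr9:21802386-21802685 on the plus strand (15 CpG).
CDKN2A, p16 start: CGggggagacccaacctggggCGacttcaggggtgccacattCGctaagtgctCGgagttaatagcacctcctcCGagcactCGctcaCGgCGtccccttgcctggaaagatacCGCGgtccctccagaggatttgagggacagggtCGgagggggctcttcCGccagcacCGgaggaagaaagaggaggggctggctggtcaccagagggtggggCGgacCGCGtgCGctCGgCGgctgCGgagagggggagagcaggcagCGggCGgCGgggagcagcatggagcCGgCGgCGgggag
CDKN2A, ARF start: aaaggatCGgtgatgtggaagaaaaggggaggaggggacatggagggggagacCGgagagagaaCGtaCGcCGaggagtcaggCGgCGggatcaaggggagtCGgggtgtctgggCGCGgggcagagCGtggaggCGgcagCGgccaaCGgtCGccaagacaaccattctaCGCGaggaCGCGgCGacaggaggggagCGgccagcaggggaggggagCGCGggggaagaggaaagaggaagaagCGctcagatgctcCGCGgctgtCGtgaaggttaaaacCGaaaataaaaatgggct
CDKN2B: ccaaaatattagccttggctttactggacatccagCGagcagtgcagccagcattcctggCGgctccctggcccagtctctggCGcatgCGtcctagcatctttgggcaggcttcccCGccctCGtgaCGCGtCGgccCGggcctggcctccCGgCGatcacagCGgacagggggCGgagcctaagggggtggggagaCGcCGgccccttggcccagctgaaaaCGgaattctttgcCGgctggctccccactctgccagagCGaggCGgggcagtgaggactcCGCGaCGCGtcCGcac
MTAP: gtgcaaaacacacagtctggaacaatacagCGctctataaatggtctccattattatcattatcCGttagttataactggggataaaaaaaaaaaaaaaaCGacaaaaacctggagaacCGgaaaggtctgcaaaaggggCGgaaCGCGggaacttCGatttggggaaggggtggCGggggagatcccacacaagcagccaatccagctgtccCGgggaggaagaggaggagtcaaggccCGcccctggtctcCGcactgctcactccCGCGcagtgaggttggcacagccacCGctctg

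At the edges of the region, FOCAD and TUSC1 have starts of a similar kind that did carry peaks of both libraries. They were named for the peaks that bound the stretch without peaks around the members, so their having peaks follows from that choice. Their sequences are given for contrast, again from RefSeq, and here the capitals mark the bases that lie under a RUNX2 peak and an MTA1 peak at once. For FOCAD, at chr9:20684009-20684308 on the plus strand, these were 211 of the 300 bases. For TUSC1, at chr9:25678395-25678694 on the minus strand, they were 250 of the 300.
FOCAD: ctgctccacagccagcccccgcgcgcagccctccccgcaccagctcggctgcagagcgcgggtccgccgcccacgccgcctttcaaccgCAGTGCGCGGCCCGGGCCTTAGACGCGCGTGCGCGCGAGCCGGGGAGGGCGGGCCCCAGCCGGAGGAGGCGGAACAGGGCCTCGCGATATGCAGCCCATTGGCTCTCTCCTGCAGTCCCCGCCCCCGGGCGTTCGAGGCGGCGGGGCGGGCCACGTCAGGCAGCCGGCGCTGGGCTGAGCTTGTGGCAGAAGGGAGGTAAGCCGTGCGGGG
TUSC1: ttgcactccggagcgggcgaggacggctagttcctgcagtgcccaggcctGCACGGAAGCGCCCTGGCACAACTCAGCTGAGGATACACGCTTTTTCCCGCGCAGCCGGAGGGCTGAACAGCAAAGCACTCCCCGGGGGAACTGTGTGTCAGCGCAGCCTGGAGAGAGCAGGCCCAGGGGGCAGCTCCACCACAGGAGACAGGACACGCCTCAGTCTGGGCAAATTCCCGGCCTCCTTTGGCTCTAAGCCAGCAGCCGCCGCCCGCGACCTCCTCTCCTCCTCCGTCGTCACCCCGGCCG

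None of the 6 members held a peak of either library. Among 15812 protein-coding genes with a start in the table, 64.9% had a RUNX2 peak inside, 62.9% an MTA1 peak and 72.7% (72.0% to 73.4%) a peak of at least 1 of the libraries, so that 27.3% were empty like the members. The count of 0 did not change with 3 kb added on either side of each gene. Longer genes hold more peaks, so the members were also set beside genes of their own size. ELAVL2 spans 160 kb and MTAP 138.5 kb, and 93.3% of protein-coding genes over 100 kb held a peak. CDKN2A spans 27.6 kb, and 79.9% of the genes from 10 to 100 kb held one. DMRTA1 with 8.92 kb and CDKN2B with 6.41 kb fall in the class under 10 kb, of which 44.7% held one. The noncoding CDKN2B-AS1 spans 133 kb, and 77.9% of the 987 lncRNA genes over 100 kb held a peak. The members are neighbours on the chromosome, so their 6 counts of 0 are a single observation rather than 6.

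The distance to the nearest peak was large for every member. It was 1.05 Mb for MTAP, 1.21 Mb for CDKN2A, 1.24 Mb for CDKN2B-AS1 and 1.25 Mb for CDKN2B, in each case to a RUNX2 peak on the FOCAD side. For DMRTA1 it was 1.69 Mb, also towards FOCAD. ELAVL2, the member farthest along the chromosome, had its nearest peak 1.83 Mb away on the side of TUSC1. The nearest MTA1 peaks were slightly farther, from 1.07 Mb for MTAP to 1.83 Mb for ELAVL2. Most genes elsewhere have a peak inside or next to them: the median distance over the protein-coding genes was 0 bp, and 75% had a peak within 107 bp. Only 19 of the 15812 genes (0.12%) had no peak within 1 Mb. All 5 protein-coding members were among these 19, together with IZUMO3, a testis gene of the same stretch, and the others lay on chromosomes 9, 14 and X.

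Peaks of both libraries ended in FOCAD and began again at TUSC1. Of the 50 bins, 45 held no peak of either library, which was 90.0% (78.2% to 96.7%). In the flanks, 10 Mb on each side, 97 of 200 bins were empty, or 48.5% (41.4% to 55.7%), and over chromosomes 1 to 22 and X the share was 32.1%. The flanks were not alike. From 10 to 20 Mb 62.0% of bins were empty (51.7% to 71.5%), and from 25 to 35 Mb 35% (25.7% to 45.2%). The window therefore lay above both, but the side towards the telomere was itself poor in peaks, with a run of 18 empty bins. In the window, 42 empty bins followed each other without a break to its end at 25 Mb, and the run went on beyond it, from 20800001 to 25600000, making 48 bins in all. The bins of this run beyond 25 Mb are also among the empty bins of the flank from 25 to 35 Mb. Of 3875 runs of empty bins in the genome, 8 were at least as long, this one included, and the median run was a single bin.

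**Figure D1:**
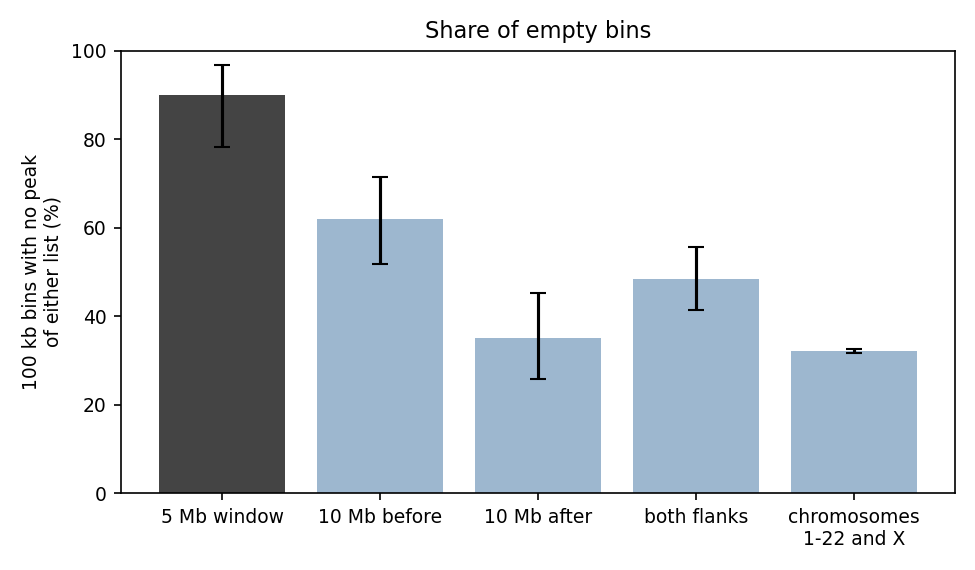
Percent of 100 kb bins that no peak of either library touched, in the 5 Mb window around CDKN2A, in the 10 Mb before and after it, in both flanks together and on chromosomes 1 to 22 and X; bars start at 0 and error bars are exact 95% binomial intervals over bins. The window stands at 90.0%, against 62.0% and 35% in the flanks and 32.1% genome-wide.

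By density, the window held 8 RUNX2 peaks, 1.60 per Mb (0.691 to 3.15), against 245 peaks or 12.3 per Mb (10.8 to 13.9) in the flanks, which is 7.66-fold more. The MTA1 list also had 8 peaks in the window, 1.60 per Mb (0.691 to 3.15), against 157 or 7.85 per Mb (6.67 to 9.18) in the flanks, 4.91-fold more. Over chromosomes 1 to 22 and X the densities were 20.9 and 14.5 per Mb, so the flanks were below the rest of the genome as well. The flank on the telomere side had 86 RUNX2 and 50 MTA1 peaks in its 10 Mb, and the other flank 159 and 107. The peaks of the window were not spread over it. All of them lay in its first 0.756 Mb, a piece that ends on the last peak by its definition, with 8 peaks of each list.

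**Figure D2:**
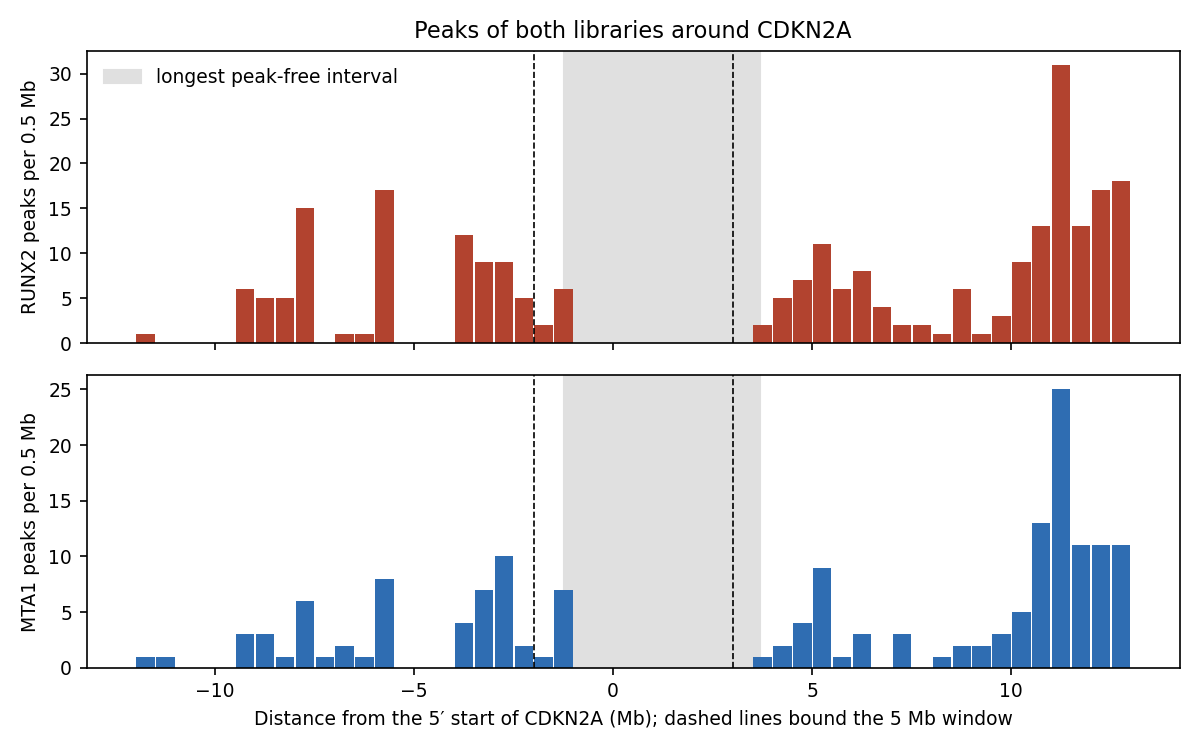
Number of RUNX2 peaks (upper panel) and MTA1 peaks (lower panel) in steps of 0.5 Mb, by distance in Mb from the 5′ start of CDKN2A; dashed lines bound the 5 Mb window and grey marks the longest peak-free interval that it touches. Both lists fall to 0 across the same steps, and shorter empty stretches are present on the left.

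The longest interval without a peak of either library ran from 20756038 to 25677541 on chromosome 9, a length of 4.92 Mb. It began inside FOCAD, ended at TUSC1 and held all 6 members. The interval took up 84.9% of the window and ran beyond its end. At the density of the flanks it would have held 60.3 RUNX2 and 38.6 MTA1 peaks. The interval was defined by its lack of peaks, so its count of 0 is a description and carries no interval. The authors numbered their peaks in order within each list, and the numbers ran on without a break across it. RUNX2 peak 57876 was the last before the interval and 57877 the first after it, and for MTA1 they were 40153 and 40154. Both bounds were RUNX2 peaks. With the MTA1 list alone the interval was 4.95 Mb long, from 20732388 to 25678307.

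On the near side the last peaks lay in FOCAD, which encodes the focal adhesion protein focadhesin and spans 340 kb. It held 5 RUNX2 and 4 MTA1 peaks. The strongest pair was at its start, with a RUNX2 peak at 20683954 to 20684421 (score 12.7, higher than 76.3% of its list) and an MTA1 peak at 20684098 to 20684330 (score 19.0, higher than 86.5%). These were also the highest scores of the window in both lists. The last site with peaks of both libraries lay farther into the gene, RUNX2 at 20732147 to 20732280 (score 5.22) and MTA1 at 20732182 to 20732387 (score 7.66). Beyond it the RUNX2 list had 2 peaks of the narrowest width in the list, 99 bp, the second at 20755939 to 20756037 (score 5.22, higher than 29.3%). The rest of FOCAD, 240 kb or 70.5% of its length, lay in the interval and held no peak.

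Before FOCAD the window held few peaks, mostly of low score. MLLT3, a reader of acylated histones in the super elongation complex, had overlapping peaks at its start, RUNX2 at 20622393 to 20622691 (score 5.75) and MTA1 at 20622506 to 20622704 (score 5.03). Inside it the MTA1 list had 3 further peaks with scores of 3.38, 4.13 and 8.03, none of them overlapped by a RUNX2 peak. SLC24A2, a sodium, calcium and potassium exchanger, had the remaining RUNX2 peaks of the window, with scores of 3.67 and 5.22. In each list 3 of the 8 peaks had the narrowest width, as did 31.7% of all RUNX2 and 26.0% of all MTA1 peaks. Of the 8, 4 overlapped a peak of the other list, and the share over the whole lists is not given here. At or above the median score of their list were 1 RUNX2 peak and 4 MTA1 peaks.

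On the far side the first peaks lay at TUSC1, a small gene with a single exon named as a tumour suppressor candidate. There the RUNX2 list had a peak at 25677542 to 25677666 (score 6.84) and one at 25678250 to 25678644 (score 19.1, higher than 86.2% of its list). The latter overlapped the MTA1 peak at 25678308 to 25678690 (score 17.3, higher than 83.8%). The interval thus ended at a start region with high scores in both lists, whereas the RUNX2 peaks just before it had low ones.

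**Figure D3:**
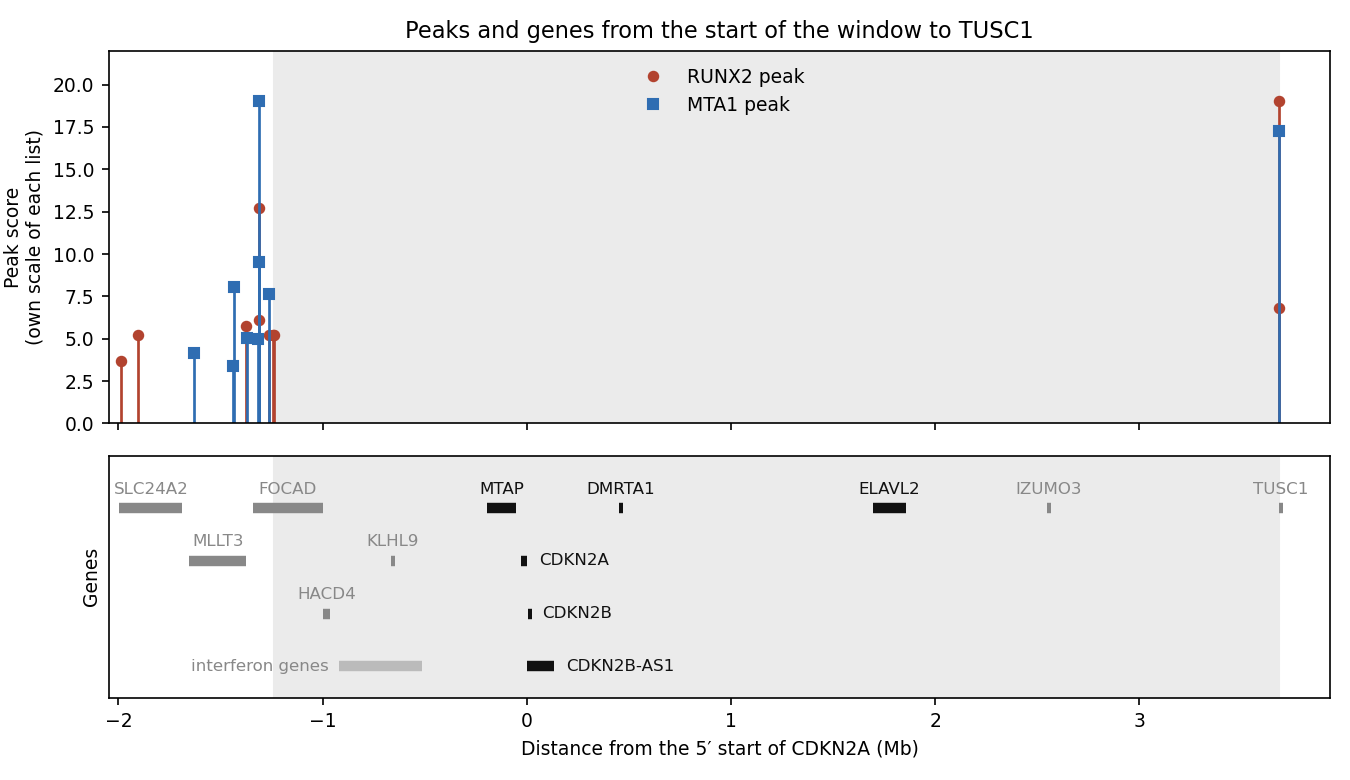
Upper panel, score of each RUNX2 and MTA1 peak (vertical axis, each list on its own scale) by distance in Mb from the 5′ start of CDKN2A, and lower panel, protein-coding genes and CDKN2B-AS1 on the same axis, with members in black, the interferon genes drawn as 1 bar and SLC24A2 clipped at the edge of the window; grey marks the peak-free interval. All peaks of the window lie left of the grey area, the peaks at TUSC1 lie at its right edge, and all 6 members fall inside it.

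The interval held 24 protein-coding genes in full. Of these, 16 were type I interferon genes, the small intronless genes of antiviral signalling that cluster here. Their start regions held 1 to 3 CpG in 300 bases where a sequence was given, and IFNK, the only interferon gene of the list outside the interval, had no peak either. The other 8 were HACD4, an enzyme of very long chain fatty acid synthesis, KLHL9, a substrate adaptor of a CUL3 ubiquitin ligase, the 5 protein-coding members and IZUMO3. The microRNA gene MIR31 also lies there. Its mature 5p product, known as an inhibitor of metastasis in breast cancer models, is shown with its seed in capitals because the gene that encodes it shares the interval with CDKN2A.
hsa-miR-31-5p: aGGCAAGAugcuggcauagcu

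Among the 24 genes, 6 had a CpG-rich start, taken as a ratio of observed to expected CpG of at least 0.6 with a GC content of at least 50% over the 300 bases. They were HACD4, KLHL9, MTAP, CDKN2A, CDKN2B and ELAVL2. Of all 10819 protein-coding genes with such a start, 75.9% (75.1% to 76.7%) had a peak of either library within 1 kb of a start of this kind, 67.4% for RUNX2 and 70.7% for MTA1. Of the 4993 genes without one, 20.9% (19.8% to 22.1%) had a peak at a start. The members differed in this feature. The start of CDKN2B-AS1 held 36 CpG at a GC content of 74.0%, and the most CpG-rich of the 6 starts of ELAVL2 held 40. At MTAP the count was 15 with a ratio of 0.715. The start of DMRTA1 held 16 CpG, but with a ratio of 0.549 it did not reach the limit. In all, 10 of the 12 member starts and 5 of the 6 members were CpG-rich, beside 10819 of the 15812 protein-coding genes. The 6 starts of ELAVL2 are close neighbours but were counted separately. The hexamer TGTGGT, the core bound by RUNX proteins, was found on either strand in 1 of the 12 member starts, at ELAVL2, against 11.3% of 22132 starts of protein-coding genes.

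Long intervals without peaks were a small part of all intervals but were found elsewhere too, and most of them had few genes. There were 75898 intervals between neighbouring peaks with a median length of 13.4 kb, and 102 of them were at least 1 Mb long. The one holding CDKN2A was the eighth longest, with 7 longer, whereas 10 were longer with the MTA1 list alone and 12 when only peaks that reached the median score of their list were kept. Of the 7 longer ones, 4 held no protein-coding gene and none held more than 5. The 7 lay on chromosomes 1, 9, 11, 16, 18 and X. No centromere positions were used, so whether they span centromeres or repeats was not tested. The 24 protein-coding genes of the CDKN2A interval were exceeded in 2 intervals, both of tandem gene families. These were an interval of 1.16 Mb on chromosome 8 with 43 genes, among them FAM90A and defensin genes, and one of 0.950 Mb on chromosome 11 with 36 genes, mostly olfactory receptors such as OR4C15. An interval of 0.925 Mb on chromosome 4, with USP17L genes, also held 24. Another interval with 6 genes with a CpG-rich start, named after its values were seen, was one of 0.142 Mb in the HOXA cluster. The intervals longer than that of CDKN2A held at most 2.

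**Figure D4:**
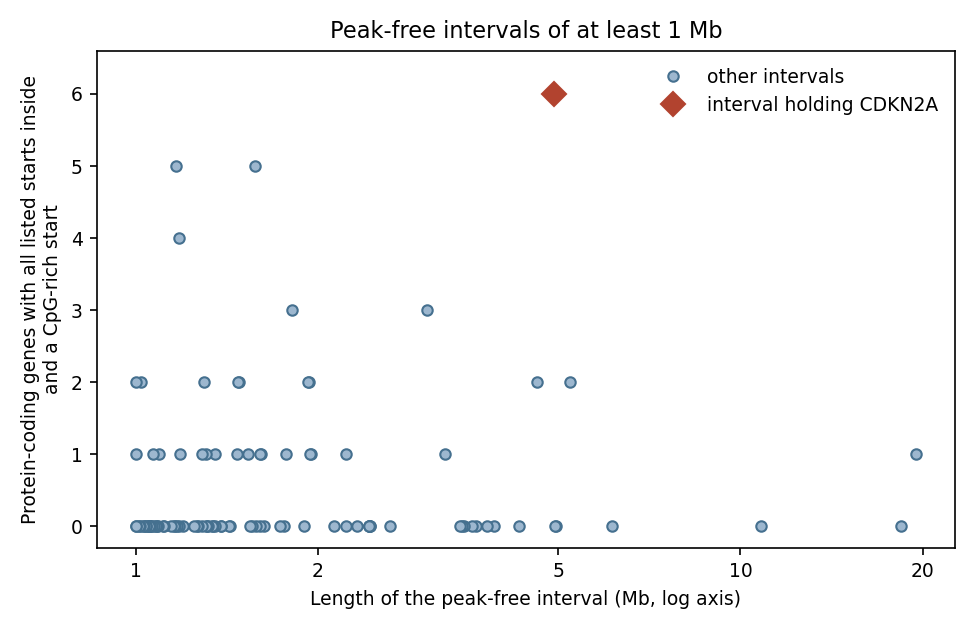
Each point is an interval of at least 1 Mb without a peak of either library on chromosomes 1 to 22 and X, by its length in Mb (horizontal, log axis) and the number of protein-coding genes whose listed starts all lie in it and include a CpG-rich one (vertical); genes without a listed start are not counted. The interval with CDKN2A (diamond) stands at 4.92 Mb and 6 genes, and the next highest points hold 5.

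Relatives and partners of the members elsewhere in the genome showed how often such genes carried peaks inside or within 3 kb of their ends. Of all protein-coding genes, 74.5% had a RUNX2 peak by this measure and 71.5% an MTA1 peak, and 66.4% had both. The first list held the other INK4 and CIP/KIP inhibitors of CDKs and CDKN3, a phosphatase that acts on CDK2. All 6 genes of it had a RUNX2 peak and 5 an MTA1 peak. CDKN2C, which encodes the INK4 inhibitor p18, had 2 RUNX2 and 3 MTA1 peaks with top scores of 7.86 and 11.5, and CDKN1B, for p27, had 3 and 2. The fewest were found at CDKN3, with 1 of each, and at CDKN1C, for p57, with 2 RUNX2 peaks and no MTA1 peak. CDKN2D, for the INK4 inhibitor p19, was named after its values were seen and had top scores of 42.1 and 28.5. Both of the remaining INK4 genes carried peaks of both libraries, as did 66.4% of all protein-coding genes. The 2 INK4 genes in the interval, which are neighbours, carried none, and with so few genes this is a description only.

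Of the 9 partners of p16 and ARF, 8 had peaks of both libraries. CDK6, a kinase that p16 blocks, had 11 RUNX2 and 9 MTA1 peaks, and CCND3, a D-type cyclin that activates it, had 11 and 7. RB1, the substrate of these kinases, had 1 and 2. CCND2, another D-type cyclin, had none of either. The 9 genes of methionine salvage, polyamine synthesis and the enzymes linked to MTAP all had peaks of both libraries. AMD1, a decarboxylase of polyamine synthesis, had 4 RUNX2 and 3 MTA1 peaks. PRMT5, the arginine methyltransferase that methylthioadenosine inhibits, had 2 of each with top scores of 31.7 and 33.1. MRI1, the enzyme after MTAP in the pathway, had 1 of each.

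For the remaining members the listed relatives carried few peaks, apart from ELAVL1. Of the 6 DMRT genes listed, 2 had a RUNX2 peak, with top scores of 3.67 at DMRT1 and 4.52 at DMRTB1, and 0 had an MTA1 peak. The list left out DMRTC1 and DMRTC1B on the X chromosome, which held no peak inside. Among the ELAVL genes, the widely expressed ELAVL1 had 6 peaks of each library, the neuronal ELAVL4 had a single MTA1 peak with a score of 5.85, and ELAVL3 had none. Genes without a peak were thus found among the relatives of DMRTA1 and ELAVL2, and 1 among those listed for CDKN2A, CDKN2B and MTAP. Over the 34 listed genes outside the interval 23 had peaks of both libraries and 7 had neither. The share with both was close to the 66.4% of all protein-coding genes. Whether the DNA between FOCAD and TUSC1 is absent in these cells or present and unbound cannot be told apart from the peaks, for the members as for the outer parts of the interval.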

How the data were processed

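CUT&Tag peaks of 1 RUNX2 and 1 MTA1 library of MDA-MB-231 cells were used as the authors deposited them, with position, number and a score for each peak. The authors called peaks per library. The scale of the deposited score, the threshold and any control were not given in the sources used here, so scores were ranked only within a list. The notes of the submitters name CASAVA 1.4, Bowtie 0.12.8, MACS, MACS2 and the build hg19. Peak positions were checked against RefSeq genes of GRCh38.p14. Peak centres at most 1 kb from where a coding gene starts or ends were more frequent as listed than when shifted by 100 kb on 23 of 23 chromosomes. On chromosome 17 the last peaks ended at 83203358 and 83203435, which is beyond the end of this chromosome in hg19. The positions were therefore read as GRCh38 and printed 1-based. The labels and the methods name different antibody suppliers, and the labels describe chromatin precipitation with adaptor ligation beside CUT&Tag.

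Peaks off chromosomes 1 to 22 and X (23 and 25) were left out. A bin or gene was empty when no peak touched it by 1 bp, and a peak counted in a region by its centre. Shares carry Clopper-Pearson and densities Poisson intervals. Bins outside the first and last peak of a chromosome were not counted. Genes without a start in the table were left out of the shares. The members, lists and tests were chosen with earlier results of these data known. The named genes were the members, the genes in or at the edge of the interval, those at the first and strongest peaks, the 3 other intervals with most genes and the list members with most or fewest peaks. CpG measures, MIR31 and genes said to be so were chosen after their values were seen. Alternatives were other bins, flanks, scores, widths and windows. The code of the interval step was checked on simulated data, recovering 20 of 20 planted intervals. The simulated peaks lay at random positions, with peaks set at the planted bounds. The check therefore covers coding errors only and not clustered peaks as in the lists. Computations used Python 3.11.15 with scipy 1.17.1, pandas 2.3.3, numpy 2.4.6 and, for plots, matplotlib 3.10.9.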

Additional observations from a re-analysis of the deposited data

How the results depend on the processing

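Of 33 alternatives, 30 left a share or density within its counting interval, or a count or length within 1.5-fold. When only peaks that reached the median score of their list were kept, the flanks held 33.3-fold more RUNX2 peaks per Mb than the window, because 1 RUNX2 peak remained there. The share of genes with a CpG-rich start and a peak was 69.4% for peaks on the 300 bases themselves and 80.3% within 3 kb, as a narrower or wider window gives by construction. The alternatives on CpG-rich starts were chosen after seeing the data. The share of empty bins ran from 84.0% with 200 kb bins to 94.0% with the RUNX2 list alone or with peaks of higher score. The interval ran from 4.92 to 4.95 Mb, with 7 longer intervals in the genome for both lists, 8 without the narrowest peaks, 10 for MTA1 alone and 12 for peaks of higher score. The members held 0 peaks in each alternative run for them. Settings that only leave out peaks or use a single list can only keep or raise the empty share and the interval length. Likewise, peaks of higher score or with their centre inside could not add a peak to the members. Only the 3 kb added on either side could have done so. With at least 20 CpG as the limit, 4 genes of the interval were CpG-rich. No paired analysis was possible because each antibody has 1 library. The number of reads is unknown, so whether fragments below the threshold lie in the interval was not detectable.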

Other observations

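The telomere side of the region held other long intervals without a peak. On chromosome 9 below 40 Mb 4 intervals were at least 1 Mb long, the one with CDKN2A included. An interval of 1.82 Mb, from 16421812 to 18238297, held CNTLN and SH3GL2 in full and the starts of these genes and of BNC2, all 3 of them CpG-rich. An interval of 1.90 Mb, from 10876482 to 12776432, held TYRP1, a melanocyte enzyme. One of 1.60 Mb, from 7320437 to 8923348, held DMAC1. Whether DNA is missing at these places was not tested, and the intervals given here were named after their values were seen.

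The X chromosome held 20 of the 102 intervals of at least 1 Mb. Its share of the sequence, the genes or all intervals is not given here, so whether this is many was not tested. The X intervals below were also named after their values were seen. Of the 20, 1 of 4.61 Mb held DMD, the gene of dystrophin, and TMEM47, and 1 of 5.22 Mb held PCDH11X, PABPC5 and 3 other genes.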
